A study of Homo sapiens with 4 samples.

Results

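The 10 genes described here handle tubulin before and around its assembly into microtubules: the folding cofactors TBCA, TBCB, TBCC, TBCD and TBCE, γ-tubulin (TUBG1) with its ring proteins TUBGCP2 and TUBGCP3, the tubulin-sequestering protein stathmin (STMN1), and the tubulin autoregulation factor TTC5. They were listed by name, with no threshold on their values, and all 10 were found by Ensembl identifier among the 58735 genes of the count table. Their mRNA was measured by RNA-seq in MDA-MB-231 and SUM159, 2 human triple-negative breast cancer (TNBC) cell lines, each kept for 72 h with 1 μM mebendazole (MBZ) or with its solvent DMSO. There was 1 library for each of these 4 conditions and no replicate, so no change within a line has a test. The cells were cultured lines with no other agent or engineered allele named in the labels.

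MBZ is a benzimidazole drug that binds β-tubulin and blocks its polymerization. New α- and β-tubulin chains leave the cytosolic chaperonin and are passed to the 5 cofactors: TBCA and TBCD hold β-tubulin, TBCB and TBCE hold α-tubulin, and TBCC acts on the complex of both to release a dimer ready for assembly. The γ-tubulin ring complex, made of γ-tubulin and the TUBGCP proteins, is the template on which microtubules start. Stathmin binds free dimers and favours microtubule shrinkage, and TTC5 recognizes tubulin chains emerging from the ribosome and marks their mRNAs for decay when free dimers are in excess, which is called autoregulation.

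The libraries held 24897586 counts (MDA-MB-231, DMSO), 17143139 (MDA-MB-231, MBZ), 18708179 (SUM159, DMSO) and 18904501 (SUM159, MBZ). Both lines carried the mesenchymal markers VIM (1089 to 3285 CPM, counts scaled to the size of the library, over all 4) and CD44 (390.2 to 1222 CPM), and the hormone receptor genes ESR1 (at most 0.873 CPM) and PGR (0 in every library) were at or near 0. ERBB2 was detected in every library (59.0 to 110.2 CPM), and the epithelial gene EPCAM stood at 6.20 and 9.99 CPM in MDA-MB-231 and at most 0.436 CPM in SUM159. Of the markers of other cell types, CD3E reached at most 0.0485 CPM and CDH5 0.291 CPM, PTPRC ranged from 0.344 to 13.0 CPM, PECAM1 from 15.7 to 40.001 CPM and COL1A1 from 5.89 to 81.1 CPM, and DCN was at 0 in MDA-MB-231 and at 20.2 and 24.6 CPM in SUM159. A set of 20 proliferation genes, MKI67 and MCM2 among them, summed to 5310 CPM in MDA-MB-231 with DMSO and to 2567 CPM with MBZ. In SUM159 the sums were 799 CPM with DMSO and 2356 CPM with MBZ, each line being scaled within its own pair of libraries. The SUM159 library with DMSO thus stood apart by its low level of these genes, and every comparison within SUM159 rests on it.

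Below, a fold change is the log2 ratio of CPM with MBZ over CPM with DMSO in the 2 libraries of a line, after TMM scaling, which sets the bulk of the genes to a change near 0. Values in square brackets are 95% Clopper-Pearson intervals for the split of the reads between both libraries. They cover counting error only, not the spread between cultures. A gene is called higher or lower when it changed at least 1.5-fold and its counts averaged 10 or more over the pair, and all 10 genes met this minimum in both lines. In bulk RNA, fewer cells that express a gene and less of its RNA per cell cannot be told apart.

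In MDA-MB-231 4 of the 10 genes were called lower after MBZ (STMN1, TBCD, TUBGCP2 and TUBG1) and 0 higher. Among the 15142 genes compared in this line, 15.8% were called lower and 18.3% higher. In SUM159 3 of the 10 were called higher (TUBG1, STMN1 and TBCA), where 21.5% of 15674 genes were, and 1 was called lower (TBCD), where 21.7% were. By the counting interval alone, 0 of the 10 lay above 0 and 6 below in MDA-MB-231, where 30.5% and 35.3% of all genes did, and 6 lay above and 3 below in SUM159, where 31.5% and 37% did. A 2-fold limit left 2 genes lower (STMN1 and TBCD) and 0 higher in MDA-MB-231, where it called 5.14% and 9.05% of all genes, and 1 gene higher (TUBG1) and 0 lower in SUM159, where it called 12.7% and 10.7%. The median log2 fold change of the 10 genes was -0.30 in MDA-MB-231 and 0.21 in SUM159, beside medians over all genes of -0.02 and -0.03. When the libraries were scaled by total counts alone, the median of all genes moved up by 0.27 in MDA-MB-231 and by 0.30 in SUM159, and the calls became 0 higher and 3 lower in MDA-MB-231 and 5 higher and 0 lower in SUM159. Over all genes that scaling called 29.1% higher and 7.57% lower in MDA-MB-231 and 32.8% higher and 12.8% lower in SUM159.

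**Figure D1:**
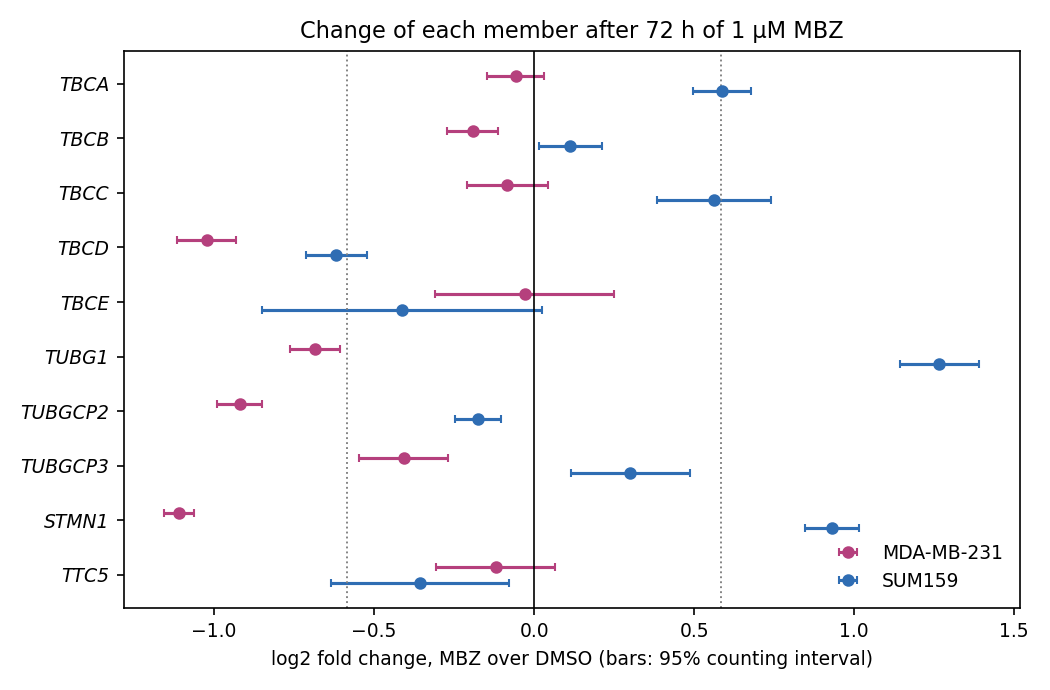
Log2 fold change of each of the 10 genes after 72 h of 1 μM MBZ, in MDA-MB-231 (pink) and SUM159 (blue), with 95% counting intervals as bars and the 1.5-fold limits dotted. STMN1 and TUBG1 lie to the left of 0 in MDA-MB-231 and to the right in SUM159, and TBCD lies to the left in both. Under scaling by total counts TBCA, TBCB, TBCC, TBCE and TTC5 in MDA-MB-231 and TUBGCP2 in SUM159 take the opposite sign.

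Among the folding cofactors, TBCD was the one that was lower with MBZ in both lines by the 1.5-fold rule. TBCD (ENSG00000141556, chromosome 17 from 82752042 to 82945914 of GRCh38, 39 exons in its canonical transcript) encodes the large cofactor that captures β-tubulin. Its counts were 3289 with DMSO against 1340 with MBZ in MDA-MB-231, and 2018 and 1637 in SUM159. The log2 fold change came to -1.02 [-1.12, -0.93] in MDA-MB-231, a level 2.03-fold lower, and -0.62 [-0.71, -0.52] in SUM159, 1.53-fold lower. The SUM159 value passed the 1.5-fold limit only narrowly, and under scaling by total counts it was -0.32. Of all genes in MDA-MB-231, 4.81% had a lower log2 fold change than TBCD, and in SUM159 20.4% had. Of the exonic bases of TBCD, 9.2% overlap genes on the opposite strand, mostly B3GNTL1, which had 228 to 467 counts in the 4 libraries.

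Of TBCA and TBCC, the β-tubulin holder and the factor that releases the dimer, TBCA alone was called under TMM scaling, higher in SUM159. TBCA (ENSG00000171530, chromosome 5 from 77691166 to 77868780) had 2303 counts with DMSO against 1831 with MBZ in MDA-MB-231, a log2 fold change of -0.06 [-0.15, 0.03]. In SUM159 it had 1475 and 2758 counts, a log2 fold change of 0.59 [0.49, 0.68]. At 1.502-fold this was just above the limit for a call. TBCC (ENSG00000124659, chromosome 6 from 42744498 to 42746103, 1 exon) had 1164 and 909 counts in MDA-MB-231, a log2 fold change of -0.08 [-0.21, 0.04], and 403 and 740 counts in SUM159. The log2 fold change of 0.56 [0.38, 0.74] in SUM159, or 1.47-fold, was just under the limit (0.86 and called under scaling by total counts), so the call separates TBCA from TBCC although their intervals overlap. In MDA-MB-231 neither gene could be told from a change of 0 at this depth, and both turned positive (0.21 and 0.18) when scaled by total counts. The annotation also holds 3 pseudogenes of TBCA, and reads that match them too could have affected its counts.

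The 2 cofactors that hold α-tubulin were not called in either line. TBCB (ENSG00000105254, chromosome 19 from 36114289 to 36125947) had 2958 and 2143 counts in MDA-MB-231 and 1457 and 1961 in SUM159. Its log2 fold changes of -0.19 [-0.27, -0.11] and 0.11 [0.01, 0.21] lay on opposite sides of 0, but scaling by total counts turned the first to 0.07. TBCE (ENSG00000284770, chromosome 1 from 235367360 to 235452443) was the least abundant cofactor, with 238 and 193 counts in MDA-MB-231 and 93 and 87 in SUM159. Its log2 fold changes were -0.03 [-0.31, 0.25] and -0.41 [-0.85, 0.02], so that no change was detectable at this depth in either line. TBCE shares 39.2% of its exonic bases with other genes, among them B3GALNT2 on the opposite strand and a read-through gene on the same strand. With the reads of the read-through gene added, the values were -0.04 and -0.27.

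Ratios of reads between cofactors do not depend on how libraries are scaled. The ratio of TBCD to TBCC reads went from 2.83 to 1.47 in MDA-MB-231, a log2 change of -0.94 [-1.09, -0.78], and from 5.01 to 2.21 in SUM159, a log2 change of -1.18 [-1.38, -0.98]. The ratio was thus lower with MBZ in both lines, 1.92-fold and 2.26-fold, and the intervals of the 2 log2 changes overlapped. Against TBCE, TBCD was lower in MDA-MB-231, with a log2 change of the ratio of -0.99 [-1.28, -0.70], while in SUM159 the change of -0.21 [-0.64, 0.23] could not be told from 0. The ratio of TBCA to TBCB went from 0.779 to 0.854 in MDA-MB-231 and from 1.01 to 1.41 in SUM159.

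The 3 genes of the γ-tubulin ring had counting intervals below 0 in MDA-MB-231, and 2 of them were called lower. In SUM159 TUBG1 alone was called, higher, under TMM scaling. Under scaling by total counts the SUM159 values of all 3 genes were positive. TUBG1 (ENSG00000131462, chromosome 17 from 42609641 to 42615238, 11 exons), the main γ-tubulin gene, had 3908 counts with DMSO against 2013 with MBZ in MDA-MB-231 and 726 and 2174 in SUM159. Its level was lowest in SUM159 with DMSO and highest in MDA-MB-231 with DMSO, and the 2 MBZ libraries lay between. The log2 fold change came to -0.68 [-0.76, -0.61] in MDA-MB-231 and 1.27 [1.14, 1.39] in SUM159, 1.61-fold lower and 2.40-fold higher. Under scaling by total counts the MDA-MB-231 value was -0.42, below the limit for a call. The difference between the lines, SUM159 minus MDA-MB-231, was 1.95 [1.81, 2.09] on the log2 scale and lay above that of 96.0% of genes.

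TUBGCP2 and TUBGCP3 encode the 2 proteins that pair with γ-tubulin in the small complex from which the ring is built. TUBGCP2 (ENSG00000130640, chromosome 10 from 133278635 to 133318823) had 5502 and 2407 counts in MDA-MB-231 and 3079 and 3394 in SUM159, log2 fold changes of -0.92 [-0.99, -0.85] and -0.18 [-0.25, -0.10]. The second became 0.13 under scaling by total counts. TUBGCP3 (ENSG00000126216, chromosome 13 from 112485011 to 112588205) had 1106 and 690 counts in MDA-MB-231 and 390 and 598 in SUM159, log2 fold changes of -0.41 [-0.55, -0.27] and 0.30 [0.11, 0.49], both short of 1.5-fold. Under scaling by total counts the SUM159 value was 0.60 and passed the limit. TUBGCP2 was thus called lower in MDA-MB-231, and TUBGCP3 was not called in either line under TMM scaling. Small parts of the exons of TUBGCP2 (5.69%, with ZNF511), TUBG1 (4.03%, with RETREG3) and TBCB (6.43%, with POLR2I) overlap genes on the other strand, and the annotation holds 1 pseudogene of TUBG1 and 2 of STMN1.

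Read against each other, the ring genes did not keep their proportions. TUBG1 reads per TUBGCP2 read went from 0.236 with DMSO to 0.641 with MBZ in SUM159, 2.72-fold higher, and from 0.710 to 0.836 in MDA-MB-231, 1.18-fold higher. TUBG1 reads per TUBGCP3 read went from 1.86 to 3.64 in SUM159, 1.95-fold higher, but from 3.53 to 2.92 in MDA-MB-231, 1.21-fold lower. In MDA-MB-231 TUBG1 thus stood higher against one partner and lower against the other. TUBGCP3 reads per TUBGCP2 read were higher with MBZ by nearly the same factor in both lines, from 0.201 to 0.287 (1.43-fold) in MDA-MB-231 and from 0.127 to 0.176 (1.39-fold) in SUM159. The intervals of these 2 log2 changes, [0.36, 0.67] and [0.28, 0.67], overlapped. These ratios use no scaling factor, but they compare reads, not molecules, since the genes differ in length.

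STMN1 had the largest drop of the 10 genes in MDA-MB-231, under TMM scaling, and the second largest increase in SUM159. STMN1 (ENSG00000117632, chromosome 1 from 25884181 to 25906991, 5 exons) had 13452 counts with DMSO against 5164 with MBZ in MDA-MB-231, and 1577 and 3741 in SUM159. The 2 MDA-MB-231 libraries both lay above the 2 SUM159 libraries, and the SUM159 library with DMSO was the lowest by far. The log2 fold change came to -1.11 [-1.16, -1.06] in MDA-MB-231, 2.16-fold lower, and 0.93 [0.84, 1.02] in SUM159, 1.91-fold higher. The difference between the lines of 2.04 [1.94, 2.14] was above that of 96.2% of genes. STMN1 kept its calls in both lines under scaling by total counts (-0.84 and 1.23).

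The calls of STMN1 and TUBG1, lower in MDA-MB-231 and higher in SUM159, were shared by 16 of 20 proliferation genes and by 4 of 10 α- and β-tubulin genes (TUBA1B, TUBA1C, TUBB4B and TUBB6). They were shared by 2 of 20 further genes of the γ-tubulin ring and its recruitment (HAUS7 and HAUS8, named because they were the only such calls, of which HAUS7 had 10 to 23 counts a library and intervals that included 0 in both lines), by 0 of 20 genes of the folding route and by 0 of 12 autoregulation and CCR4-NOT genes, and over all genes by 3.12% of 13733. Of the 20 proliferation genes, 19 were called lower and 0 higher in MDA-MB-231 (median log2 fold change -1.18), and 17 were called higher and 0 lower in SUM159 (median 1.71). All genes gave 15.8% lower and 18.3% higher in MDA-MB-231, and 21.5% higher and 21.7% lower in SUM159. Under scaling by total counts 14 proliferation genes were called lower in MDA-MB-231 and 19 higher in SUM159, beside 7.57% and 32.8% of all genes. CCNB1, the mitotic cyclin, had log2 fold changes of -0.62 and 2.88, AURKA, a mitotic kinase, -0.35 and 2.82, and MCM5, a subunit of the replicative helicase, -1.82 and 0.53. The part of proliferation in the values of STMN1 and TUBG1 was not tested. The ratio of STMN1 to TUBG1 reads went from 3.44 to 2.57 in MDA-MB-231 and from 2.17 to 1.72 in SUM159, 1.34-fold and 1.26-fold lower. The log2 changes of this ratio were -0.42 [-0.51, -0.33] and -0.34 [-0.48, -0.19].

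The regions before the transcription starts of STMN1 and TUBG1 are shown because both genes were called lower in MDA-MB-231 and higher in SUM159. They were read from RefSeq promoter windows of GRCh38.p14 (250 bases before to 50 after a start), of which all 10 genes had at least 1, 16 in all. Capitals mark CCAAT, TTTGGCGC (an E2F-type site) and GGGCGG (GC box) on either strand, so CCGCCC and ATTGG also stand in capitals. Each sequence is written 5′ to 3′ on the strand of its gene and ends with its TTTGGCGC. The STMN1 stretch is chr1:25906450-25906669, minus strand, and the TUBG1 stretch chr17:42609433-42609659, plus strand.
STMN1: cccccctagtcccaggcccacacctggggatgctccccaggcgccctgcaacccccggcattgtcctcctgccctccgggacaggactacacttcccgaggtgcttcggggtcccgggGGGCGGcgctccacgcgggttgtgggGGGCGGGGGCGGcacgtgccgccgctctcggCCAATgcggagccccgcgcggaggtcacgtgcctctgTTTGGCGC
TUBG1: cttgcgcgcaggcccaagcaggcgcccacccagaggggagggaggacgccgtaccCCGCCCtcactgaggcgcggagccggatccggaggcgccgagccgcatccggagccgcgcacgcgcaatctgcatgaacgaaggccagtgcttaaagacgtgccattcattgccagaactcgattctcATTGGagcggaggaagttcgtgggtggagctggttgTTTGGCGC

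In both sequences TTTGGCGC lies close before the RefSeq start, 38 bases in STMN1 and 31 bases in TUBG1, with a CCAAT further out at 75 and 67 bases, on the opposite strand in TUBG1. STMN1 has 3 windows, and the other 2 held neither TTTGGCGC nor CCAAT. The annotation used here has transcripts that start further out, so the last 17 bases printed for STMN1 and the last 19 for TUBG1 are also exonic in it. TTTGGCGC was found in 0.652% of all 35116 windows, CCAAT in 34.6% and GGGCGG in 45.0%, and 0.282% held both TTTGGCGC and CCAAT. Among the 10 genes, TTTGGCGC was found in windows of STMN1, TUBG1 and TBCD, CCAAT in those of 5 genes and GGGCGG in those of 8. In TBCD, TTTGGCGC was in the second of 2 windows, 232 bases before its start. The 20 bases after that start were in no annotated transcript of TBCD, a check that 13 of the 16 windows met. TTTCCCGC (1.63% of all windows) was found in a second window of STMN1 only, and TTTCGCGC (0.515%) and TTCGAA (1.45%) in none. No 2 matches of different motifs overlapped in these windows. Of 16 proliferation genes with a window, 1 (MCM6) held TTTGGCGC. These are matches of letters, with no measurement of binding.

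**Figure D2:**
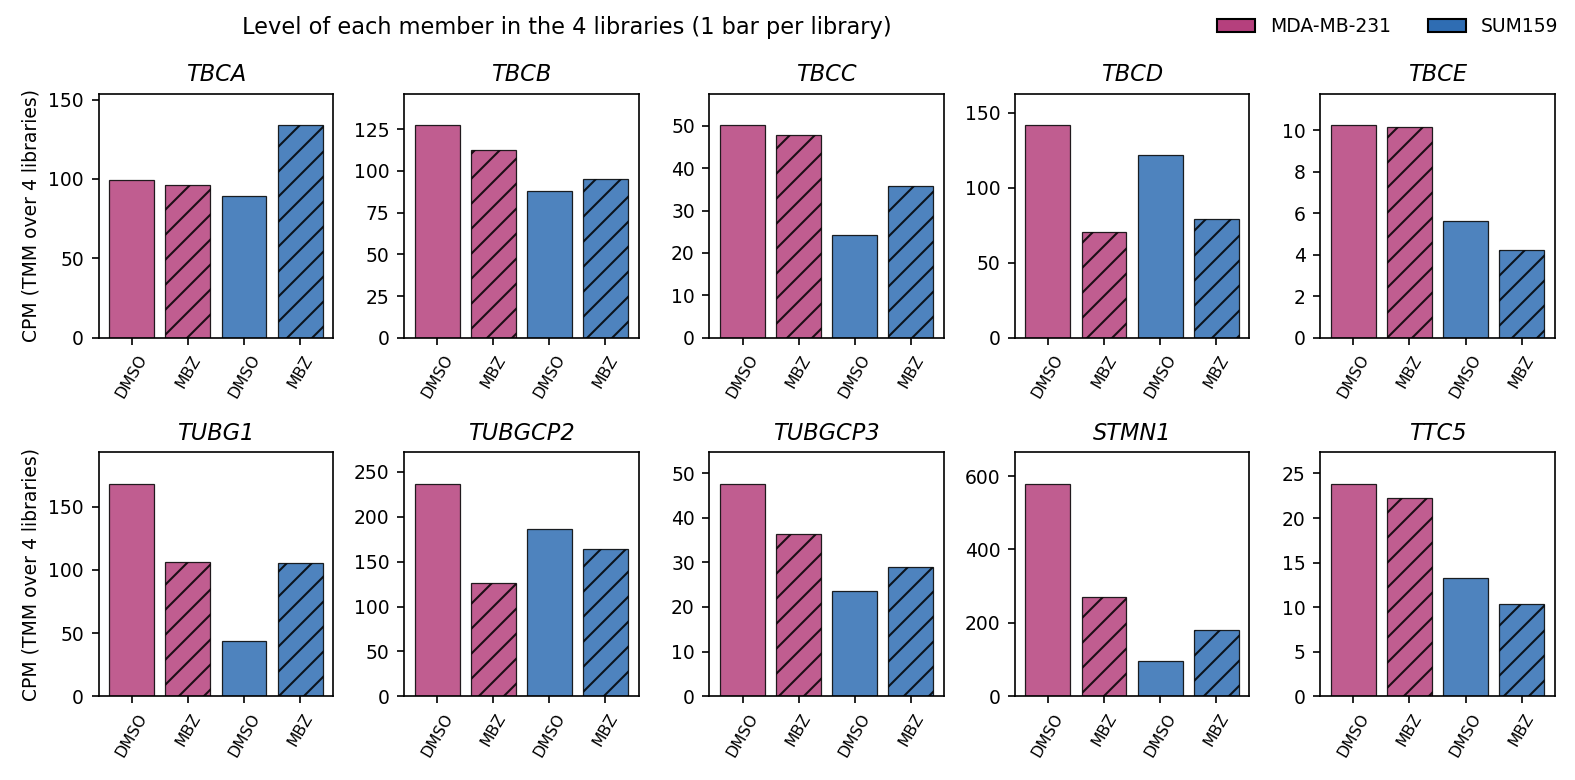
Level of each gene in the 4 libraries, in CPM after TMM scaling over the 4 libraries, with 1 bar per library and hatching for MBZ. Every axis starts at 0 and has its own range. STMN1 and TUBG1 were highest in MDA-MB-231 with DMSO and lowest in SUM159 with DMSO, and TBCD was lower with MBZ in both lines.

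TTC5, the factor that carries tubulin autoregulation, was not called in either line. TTC5 (ENSG00000136319, chromosome 14 from 20256558 to 20305960, 10 exons) had 554 counts with DMSO against 422 with MBZ in MDA-MB-231 and 219 and 213 in SUM159. The MDA-MB-231 libraries were the higher ones under both treatments. The log2 fold change came to -0.12 [-0.31, 0.07] in MDA-MB-231, which turned to 0.15 under scaling by total counts, and -0.36 [-0.64, -0.08] in SUM159. Neither reached 1.5-fold, and the counting interval in MDA-MB-231 included 0. Under scaling by total counts the SUM159 value was -0.055, so it depended on the scaling. The mRNAs on which TTC5 acts are those of α- and β-tubulin: of 10 α- and β-tubulin genes compared, 8 were called lower and 0 higher in MDA-MB-231 (median -1.24), and 6 were called higher and 1 lower in SUM159 (median 1.14). Over all genes 15.8% were called lower and 18.3% higher in MDA-MB-231, and 21.5% higher and 21.7% lower in SUM159. The levels of the α- and β-tubulin genes, scaled within each line, summed to 6559 CPM with DMSO and 2197 CPM with MBZ in MDA-MB-231. In SUM159 they summed to 1645 and 2626 CPM. TUBB, the most abundant of them, had log2 fold changes of -1.81 and 0.16, TUBB2A -0.06 and 1.995, TUBB3 0.03 and 1.71, and TUBB2B -1.28 and -0.90.

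The region before the start of TTC5, which was not called in either line, is shown as well. It was the poorest in G and C of the 16 windows, 43.6% of 250 bases beside a median of 58.0% over all windows, and held neither CCAAT nor GGGCGG nor an E2F-type site. Its 1 match, in capitals, was TTTGAA (a CHR element, found in 15.2% of all windows) 107 bases before the start. The stretch is chr14:20305961-20306201, minus strand, from RefSeq on GRCh38.p14, and stops where the annotated exons begin. Windows of TBCB, TBCC and TBCE, not called in either line under TMM scaling, held both CCAAT and GGGCGG. The window of TUBGCP3, whose intervals lay on opposite sides of 0 in the lines, held 0 matches. A link between motifs and calls was not tested.
TTC5: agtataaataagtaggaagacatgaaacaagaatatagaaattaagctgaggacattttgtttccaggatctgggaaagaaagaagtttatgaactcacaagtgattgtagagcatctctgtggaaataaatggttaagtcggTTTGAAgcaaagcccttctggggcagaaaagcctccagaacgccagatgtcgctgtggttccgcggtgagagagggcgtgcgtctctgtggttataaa

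TTC5 leads to mRNA decay through SCAPER and the CCR4-NOT deadenylase. Of 12 of these genes, 0 were called higher or lower in MDA-MB-231 (median -0.12), and in SUM159 0 were higher and 1 was lower (median -0.23), the deadenylase gene CNOT6L, named here because it was the single call. These shares stand beside 18.3% higher and 15.8% lower over all genes in MDA-MB-231 and 21.5% and 21.7% in SUM159. The counting interval lay below 0 for 5 of the 12 in MDA-MB-231 and for 7 of the 12 in SUM159, where over all genes it did for 35.3% and 37%. SCAPER, the adaptor between TTC5 and the deadenylase, had 211 and 158 counts in MDA-MB-231 and 213 and 182 in SUM159, log2 fold changes of -0.14 [-0.45, 0.16] and -0.54 [-0.84, -0.25]. CNOT8, a catalytic subunit, had -0.10 and -0.57, and CNOT4, a ubiquitin ligase subunit, 0.17 and 0.18. Under scaling by total counts the 2 medians changed sign, to 0.15 and 0.07, with 1 higher and 0 lower in MDA-MB-231 and 0 and 0 in SUM159. That scaling called 29.1% of all genes higher and 7.57% lower in MDA-MB-231, and 32.8% and 12.8% in SUM159.

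The other genes of the folding route, that is prefoldin, the chaperonin CCT and their partners, were mostly within 1.5-fold of their DMSO levels in both lines (19 of 20 genes in MDA-MB-231 and 16 of 20 in SUM159). In MDA-MB-231 0 were called higher and 1 lower (median -0.01), where 18.3% and 15.8% of all genes were. In SUM159 3 were called higher and 1 lower (median 0.34), where 21.5% and 21.7% of all genes were. The prefoldin subunits PFDN2 (log2 fold changes 0.22 and 1.40) and VBP1 (0.22 and 0.82) were called higher in SUM159. ARL2, the small GTPase that works together with TBCD, had 2017 and 932 counts in MDA-MB-231 and was called lower there (-0.84 [-0.95, -0.73]), as TBCD was, and had 0.07 [-0.05, 0.18] in SUM159. TBCEL, a relative of TBCE that destabilizes tubulin, was called lower in SUM159 (0.49 in MDA-MB-231 and -1.24 in SUM159). Scaling by total counts gave 3 higher and 0 lower in MDA-MB-231 (median 0.25), where it called 29.1% and 7.57% of all genes. In SUM159 it gave 12 higher and 1 lower, where it called 32.8% and 12.8% of all genes.

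Of 20 further genes of the γ-tubulin ring and of the proteins that bring it to centrosomes and spindles, 0 were called higher and 5 lower in MDA-MB-231 (median -0.24, which became 0.02 with 3 lower under scaling by total counts), and 6 were called higher and 1 lower in SUM159 (median 0.26, which became 0.57 with 10 higher and 1 lower under that scaling). Over all genes 18.3% were called higher and 15.8% lower in MDA-MB-231, and 21.5% higher and 21.7% lower in SUM159. Scaling by total counts called 7.57% of all genes lower in MDA-MB-231, and 32.8% higher and 12.8% lower in SUM159. MZT1, a small protein that primes ring proteins for assembly, had 230 and 905 counts in SUM159, a log2 fold change of 1.66 [1.45, 1.88], and 0.27 [0.13, 0.40] in MDA-MB-231. The augmin subunits HAUS3 (0.09 and 0.77) and HAUS4 (-0.44 and -1.02) went opposite ways in SUM159. MZT2B, another small ring protein, had -0.72 and -0.50. Of the other stathmin genes, STMN3 alone had enough counts, 1530 and 421 in MDA-MB-231 and 1622 and 1678 in SUM159. Its log2 fold changes were -1.59 [-1.75, -1.43] and -0.27 [-0.37, -0.17], and the second became 0.03 under scaling by total counts. STMN3 thus shared the call of STMN1 in MDA-MB-231 but not the one in SUM159.

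**Figure D3:**
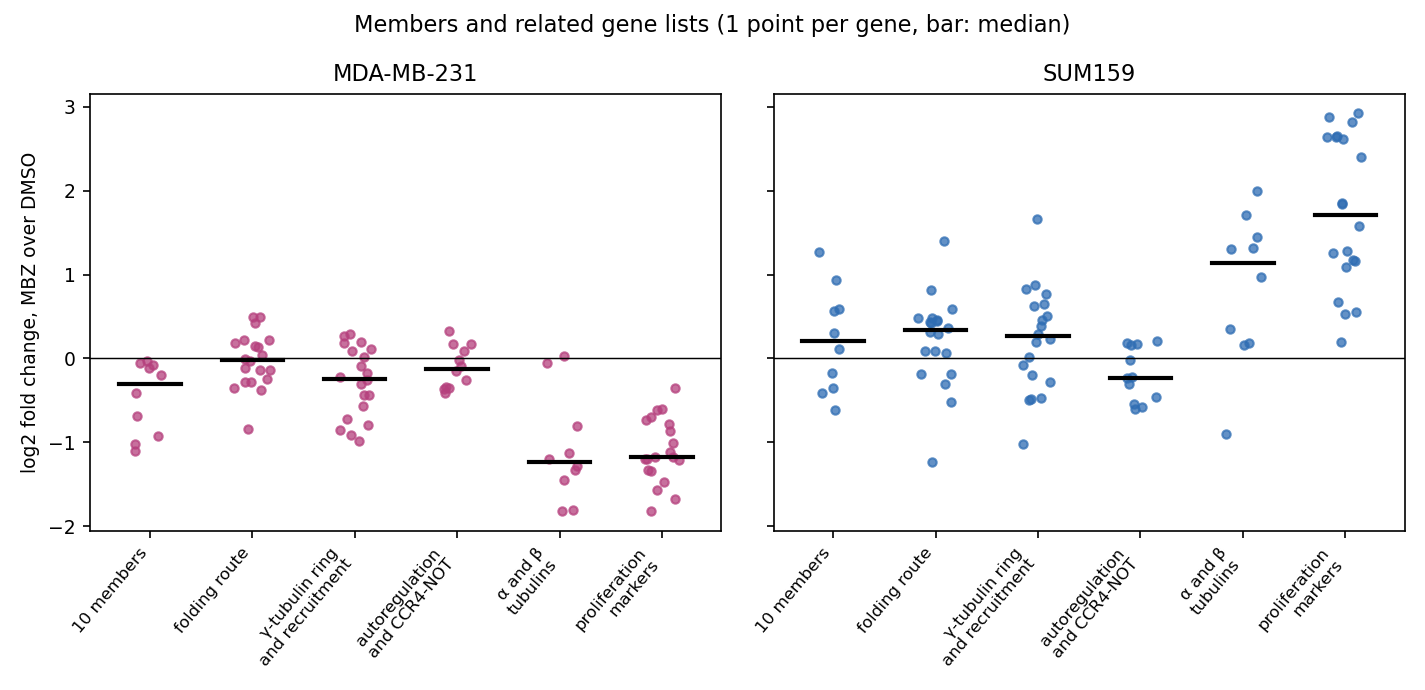
Log2 fold change after MBZ of the 10 genes and of 5 related gene lists in each line, with 1 point per gene and the median as a bar. The tubulins and proliferation genes lie lowest in MDA-MB-231 (medians -1.24 and -1.18) and highest in SUM159 (1.14 and 1.71), and the list of autoregulation and CCR4-NOT genes has the narrowest range. Under scaling by total counts the medians of the folding route, ring and CCR4-NOT lists in MDA-MB-231 and of the CCR4-NOT list in SUM159 change sign.

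Set side by side, the log2 fold change was larger in SUM159 than in MDA-MB-231 beyond counting error for 8 of the 10 genes, as it was for 31.7% of the 13733 genes compared in both lines. The interval lay below 0 in MDA-MB-231 and above 0 in SUM159 for 4 genes (STMN1, TUBG1, TUBGCP3 and TBCB), a pattern held by 10.6% of those genes. For TBCD and TUBGCP2 it lay below 0 in both, as it did for 18.3% of those genes. The difference between the lines was 0.64 for TBCA and for TBCC, 0.74 for TUBGCP2, 0.71 for TUBGCP3, 0.40 for TBCD and 0.30 for TBCB, each with an interval above 0. These 6 differences lay above those of 67.6% (TBCB) to 83.3% (TUBGCP2) of genes, short of the 2 extreme genes, STMN1 and TUBG1. For TBCE (-0.38 [-0.88, 0.12]) and TTC5 (-0.24 [-0.56, 0.09]) a difference was not detectable at this depth. Scaling by total counts put TUBGCP2 in the place of TBCB among the 4 genes of opposite sign, and DESeq2 size factors added TBCA and TBCC. Without replicate cultures none of these differences has a test.

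**Figure D4:**
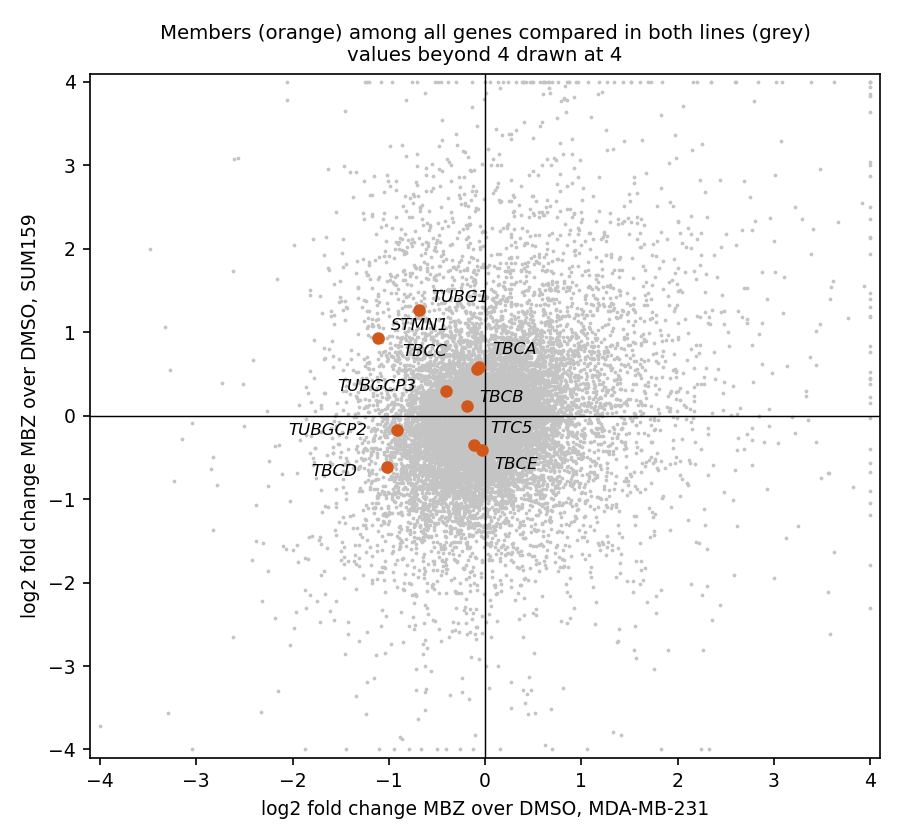
Log2 fold change after MBZ in MDA-MB-231 (x axis) against SUM159 (y axis) for the 13733 genes compared in both lines (grey) and the 10 genes (orange), with values beyond 4 drawn at 4. STMN1 and TUBG1 lie in the upper left, lower in MDA-MB-231 and higher in SUM159, and TBCD in the lower left. Points close to an axis change side with the scaling: by total counts, TBCA, TBCB, TBCC, TBCE and TTC5 move to the right of 0 and TUBGCP2 above it.

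A change in common to both lines was tested with edgeR's quasi-likelihood test, with cell line and treatment in the model, so that the unlike responses of the lines supply its error term. Of the 10 genes 0 passed an adjusted p of 0.05 and 1 had an unadjusted p under 0.05, and of 16100 genes 1 did (0.00621%), while 629 genes with a positive and 521 with a negative value had an unadjusted p under 0.05. TBCD, lower with MBZ in both lines, had the lowest p of the 10. Its log2 fold change in edgeR was -0.78 ± 0.29, with an adjusted p of 0.652 (unadjusted, 0.0328). The SE, here and below, was derived from the F statistic of that test. For STMN1 the opposite directions of the lines left a value of -0.05 ± 0.53 and for TUBG1 0.33 ± 0.49. DESeq2's Wald test also called 0 of the 10 genes and gave TBCD an adjusted p of 0.562, and the lowest adjusted p of a member over the other alternatives ran from 0.540 to 1.00.

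Without MBZ the lines differed most in the same 2 genes. With DMSO, STMN1 was at 578.7 CPM in MDA-MB-231 and 95.2 CPM in SUM159, 6.08-fold higher in the first, and TUBG1 at 168 and 43.8 CPM, 3.84-fold higher. TBCC (2.06-fold), TUBGCP3 (2.02-fold), TBCE (1.82-fold) and TTC5 (1.80-fold) were also called lower in SUM159, making 6 of the 10 genes, where 30.6% of 15559 genes were. TBCB, TUBGCP2, TBCD and TBCA differed by 1.45-fold, 1.27-fold, 1.16-fold and 1.11-fold, in the same direction. By any fold all 10 genes were lower in the SUM159 than in the MDA-MB-231 library, as were 50.5% of all genes. The proliferation genes, whose part in this was not tested, differed in the same direction (799 against 5310 CPM, scaled within each line and not over the 4 libraries).

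With MBZ the gap was smaller for 5 of the 10 genes (STMN1, TUBG1, TBCC, TUBGCP3 and TBCB), counted where the counting intervals of its size with DMSO and with MBZ did not overlap, as it was for 27.2% of 15083 genes. TUBG1 stood at 106 CPM in MDA-MB-231 and 105 CPM in SUM159, a log2 ratio of -0.01 [-0.09, 0.08], so the 2 libraries could not be told apart. STMN1 was still 1.498-fold higher in MDA-MB-231 (271.6 and 181 CPM), and TBCC 1.33-fold, TUBGCP3 1.25-fold and TBCB 1.19-fold. TBCA, TUBGCP2 and TBCD had changed places and were 1.39-fold, 1.30-fold and 1.13-fold higher in SUM159. By the same count the gap was wider for TBCA alone, in the new direction, and for 14.8% of all genes. TTC5 and TBCE were 2.15-fold and 2.40-fold higher in MDA-MB-231. For these 2 genes, TUBGCP2 and TBCD a change in the size of the gap was not detectable at this depth. These gaps and the changes within each line come from the same 4 libraries and are not separate evidence.

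**Figure D5:**
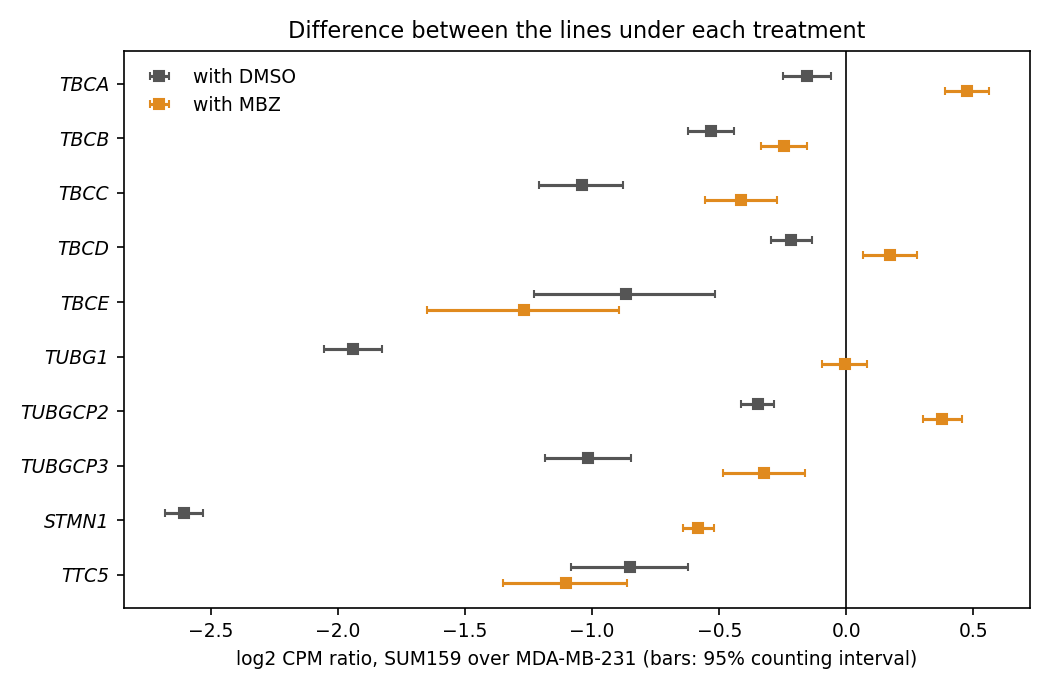
Log2 ratio of CPM in SUM159 over MDA-MB-231 for each gene, with DMSO (grey) and with MBZ (orange), with 95% counting intervals as bars. All 10 grey points lie left of 0, and the orange point of TUBG1 lies at 0, while the orange and grey bars of TBCE and of TTC5 overlap.

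Per kilobase of the canonical transcript, STMN1 was the most abundant of the 10 mRNAs in MDA-MB-231 with DMSO at 401 CPM per kilobase, followed by TBCA (150), TBCB (129), TUBG1 (105), TUBGCP2 (60.2), TBCC (31.2), TBCD (19.8), TUBGCP3 (12.3), TTC5 (5.03) and TBCE (1.91). In SUM159 with DMSO TBCA led at 135 CPM per kilobase, with TBCB at 89.1 and STMN1 at 66.0. With MBZ STMN1 stayed first in MDA-MB-231 at 188 CPM per kilobase and came second in SUM159 at 126, behind TBCA at 202. TTC5 and TBCE were the lowest of the 10 in all 4 libraries. When the length of all annotated exons was used, between 4 and 7 genes per library changed rank, so only the ends of this order hold.

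Among 10691 genes, the nearest in pattern to STMN1 over the 4 libraries were PHF19, NIBAN2 and KIF11, at distances of 0.153 to 0.169 in gene-centred log2 CPM. KIF11, a spindle motor, had log2 fold changes of -0.95 and 1.10. Nearest to TUBG1 were ARHGAP33, CENPO and ATAD5, and nearest to TTC5 were SRSF8, ZC3H14 and MIEF2. Within a distance of 0.5 lay 58 genes for STMN1, 110 for TUBG1 and 809 for TTC5. With 4 libraries many genes share a pattern, and these names are a description only.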

How the data were processed

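RNA was sequenced from MDA-MB-231 and SUM159 cells after 72 h with 1 μM MBZ or DMSO, 1 library per condition, and groups were taken from the labels. The authors mapped reads to GRCh38 with STAR (v2.5), counted them with HTSeq (v0.6.1, union mode) and deposited raw counts per gene. The annotation release and the strand setting are not given in the sources used here, so the effect of overlapping genes on the counts cannot be told. Of 58735 genes, 58207 were matched to a symbol. Annotation was GENCODE 44.

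Fold changes used edgeR 4.0.16 in R 4.3.3 (TMM within each line, factors 0.912 and 1.10 in MDA-MB-231 and 0.901 and 1.11 in SUM159, prior count 0.125). Adjusted p-values are Benjamini-Hochberg values from edgeR's quasi-likelihood test over 16100 genes (filterByExpr), with DESeq2 1.42.0 as an alternative. A count of 0 allows up to 0.120 to 0.175 CPM, from 3 counts. PCR copies were not marked by molecular identifiers, so reads are not independent molecules. The functions were run on simulated data, a check of the code that says nothing on the spread between cultures. All 10 genes and, from each list, up to 4 genes of highest and lowest mean change were named. Other genes were named where a result turned on them, such as a shared call, a motif, an overlap or a pattern. The genes, lists and tests were chosen with earlier results of these data known.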

Additional observations from a re-analysis of the deposited data

Results flagged for a closer look

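For 4 genes the counting intervals of the 2 lines lay on opposite sides of 0, lower with MBZ in MDA-MB-231 and higher in SUM159. The log2 fold change in SUM159 minus that in MDA-MB-231 was 2.04 for STMN1, 1.95 for TUBG1, 0.71 for TUBGCP3 and 0.30 for TBCB. With 1 library per condition, none of these differences was tested. The sign of TBCB in MDA-MB-231 turned under scaling by total counts (0.07), and those of STMN1, TUBG1 and TUBGCP3 held in both lines under each scaling that was run.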

How the results depend on the processing

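Scaling by total counts moved the median of the 10 genes to -0.034 in MDA-MB-231 and 0.51 in SUM159. It gave 5 higher and 0 lower genes in SUM159, where it called 32.8% and 12.8% of all genes. Relative to the median of all genes, the members' median was -0.28 under both scalings in MDA-MB-231 and 0.24 in SUM159. A 2-fold limit left 2 genes lower in MDA-MB-231 (TBCD and STMN1, beside 5.14% of all genes) and 1 higher and 0 lower in SUM159 (12.7% and 10.7%). Counting intervals alone, with no fold limit, gave 0 higher and 6 lower in MDA-MB-231 (30.5% and 35.3% of all genes) and 6 higher and 3 lower in SUM159 (31.5% and 37%). Of 82 member values under alternatives, 63 stayed inside the counting interval of the value reported, 19 did not, and 6 changed sign, all 6 under scaling by total counts. Genes with a change in common to both lines numbered 41 higher and 55 lower with DESeq2 (which left 2497 genes without an adjusted p), 153 and 145 when every gene with at least 1 count was tested, and 0 higher in a model without cell line, and none of these fits called any of the 10 genes. The cause of these shifts was not tested. No library could be left out, since each condition has 1. The test of a change in common already pairs MBZ with DMSO within each line, and the single replicate number in the labels allows no further block. Depth limited TBCE and TTC5 most.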
